A study of Mus musculus with 4 samples.

Results

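Interferon response and antigen presentation genes were examined in pituitary cells sorted as gonadotropes, the cells that secrete luteinizing hormone and follicle-stimulating hormone. The libraries also held much RNA of other pituitary types by their markers, given with the depths. The set has 38 genes, chosen by symbol, of 54532 in the deposited table, and each of the 38 symbols matched exactly 1 row by its Ensembl identifier. The members fall into 4 signalling factors, 4 sensors of nucleic acids, 17 antiviral effectors and other interferon-induced genes, 6 guanylate-binding protein (GBP) and immunity-related (IRG) GTPases, and 7 genes of MHC class I antigen presentation. Of these, 37 passed the filter on low counts and 1, Mx1, did not. Poly(A) RNA was sequenced from male mice of mixed strain aged 10 to 12 weeks, 2 libraries labelled control and 2 labelled GATA2 cKO, a conditional knockout of the transcription factor gene Gata2 that the title calls gonadotrope-specific. The labels describe purified, lysed gonadotropes from sorted pituitaries, while the design text speaks of pituitaries profiled in bulk. The Cre driver, the alleles carried by the controls, the share of each strain in each library, and whether a library came from 1 animal or from pooled animals were not given in the sources used here. P-values therefore rest on library-to-library spread alone, and that spread may be technical.

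Interferons are secreted proteins through which cells signal infection. Type I interferons act through their receptor and the kinases JAK1 and TYK2 to form a complex that includes STAT2 and IRF9 and binds the interferon-stimulated response element (ISRE), whereas responses to interferon gamma use the gamma-activated site (GAS). The induced genes include inhibitors of viral replication, GTPases that attack intracellular pathogens, and the machinery that cuts proteins into peptides and shows them on MHC class I at the cell surface. Many of these genes keep a basal level in the absence of infection.

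The libraries held 10646909 to 21135301 estimated counts each, with control replicate 1 the shallowest. Gata2 had 537 and 526 CPM (counts scaled to library size, with TMM factors) in control and 221 and 214 in cKO. All 6 gonadotrope markers of a fixed list were detected in every library, summing to 13740 to 15150 CPM in control and 6740 to 8003 in cKO, with Lhb, for the luteinizing hormone beta subunit, at 2069 CPM or more. Pomc, which marks corticotropes and melanotropes, was at 6032 to 9813 CPM and made up most of the sum of the 4 markers of those types. That sum was 7306 to 10017 CPM in control, below the gonadotrope list. In cKO, where the gonadotrope list was itself lower, it was 6166 to 7279 CPM, about the level of that list. Tbx19, of the same 4 markers, had 66.5 and 145 CPM in control and 88.6 and 71.6 in cKO. Gh, for growth hormone, was at 1124 and 2375 CPM in control and 2149 and 385 in cKO, so libraries of the same group differed. By these hormone transcripts the libraries thus do not match the label of purified gonadotropes. In such material fewer cells of a type and less RNA per cell cannot be told apart.

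Promoter windows of the members were searched for the letters of the elements through which interferons act. RefSeq windows on GRCm38.p6, from 250 bases before to 50 after each start, were held for 29 of the 38 members. The core ISRE letters (TTTC, NN and TTTC in a row), on either strand, occurred in 16 of these 29 members, and in 3.44% of all 32851 windows of that length. The GAS letters TTCNNNGAA occurred in 8 of the 29, against 8.30% of all windows, and in Bst2 the 2 motifs shared 3 bases. A member counted if any of its windows held the letters, whereas the percentages are per window, so the measures are unlike. In all, 20 of the 29 held at least 1 of the motifs and 9 held neither. The following stretches upstream of the start site show ISRE matches, in capitals, in members of 4 roles, with Gbp2b and Gbp3 shown because they lie near each other and had different counts in cKO.
Stat2, chr10:128270266-128270295, plus strand: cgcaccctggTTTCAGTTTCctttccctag
Isg15, chr4:156200865-156200906, minus strand: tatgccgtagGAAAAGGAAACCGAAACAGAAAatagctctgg
Ifit1, chr19:34640775-34640823, plus strand: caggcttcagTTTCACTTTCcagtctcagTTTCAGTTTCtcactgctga
Gbp2b, chr3:142594700-142594729, plus strand: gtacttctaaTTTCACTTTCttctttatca
Gbp3, chr3:142559989-142560024, plus strand: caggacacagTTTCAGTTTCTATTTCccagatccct
B2m, chr2:122147538-122147567, plus strand: ataagaacatGAAACTGAAAatgggaaagt
In Isg15 and B2m the motif lies on the opposite strand, and Isg15 has 3 overlapping copies. Of the 16 members with the ISRE letters 9 were higher and 7 lower in cKO, and of the other 13 members with a window 10 were higher and 3 lower. The median log2 fold changes were 0.035 and 0.32. These letters are a description of the windows and were not tested against expression.

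Interferon response genes were expressed in both groups, and 0 of the 37 tested members passed the test between cKO and control. The test was edgeR's quasi-likelihood test over 17349 genes with a Benjamini-Hochberg adjusted p under 0.05, by which 0.0576% of all genes were called. Adjusted p ran from 0.318 to 0.999 across the members. At an unadjusted p under 0.05 there were 4 members, Irf9, Rtp4, Gbp2 and Gbp2b, or 10.8% of those tested, against 7.04% of all genes. By direction these were 3 members higher, where 3.15% of all genes were, and 1 lower, where 3.88% were. The genes called by edgeR were 0.0115% higher and 0.0461% lower. At an adjusted p under 0.10, which 0.127% of all genes met, there were 0 members. DESeq2 called 2 members, Rtp4 and Gbp2b, where it called 5.44% of all genes, and limma-voom called 1, Irf9, where it called 1.48%.

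Whether a member was called depended on the libraries and the filter. With no filter on low counts 2 members were called, Irf9 and Gbp2b, and 1.04% of all genes. Gbp2b was the 1 member called without control replicate 1 (0.32% of all genes), without cKO replicate 1 (0.361%) and without cKO replicate 2 (0.503%). Irf9 and Psmb9 were called without control replicate 2 (3.5%). The count was 0 with at least 1 CPM in 2 libraries (0.0182%), with edgeR's newer quasi-likelihood method (0.271%), with the replicate number as a block (0.0403%) and with mitochondrial genes left out (0.0635%). It was also 0 with DESeq2's size factors and with library size only, which called 0.0576% each.

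As a list the members lay slightly above 0. The median log2 fold change, cKO minus control, was 0.25, beside 0.032 for all genes tested. Positive values were found for 24 of 37 members, or 64.9%, against 52.4% of all genes. Both cKO libraries lay above both controls for 12 members, or 32.4%, against 19.7% of all genes. They lay below for 6 members, or 16.2%, against 19.3%. Without cKO replicate 2 the members' median was 0.08 and that of all genes -0.081. Without control replicate 2 they were 0.26 and 0.25, so the list did not stand above the rest there. By role the medians were 0.38 for signalling factors, -0.11 for sensors, 0.072 for effectors, 0.33 for GTPases and 0.32 for MHC class I genes. With 1 library left out they ran from 0.25 to 0.55 for signalling factors and from -0.31 to -0.14 for sensors. They ran from -0.067 to 0.10 for effectors, from 0.13 (without cKO replicate 1) to 0.33 for GTPases, and from 0.20 (without control replicate 1) to 0.44 for MHC class I genes. Differences between roles were not tested.

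**Figure D1:**
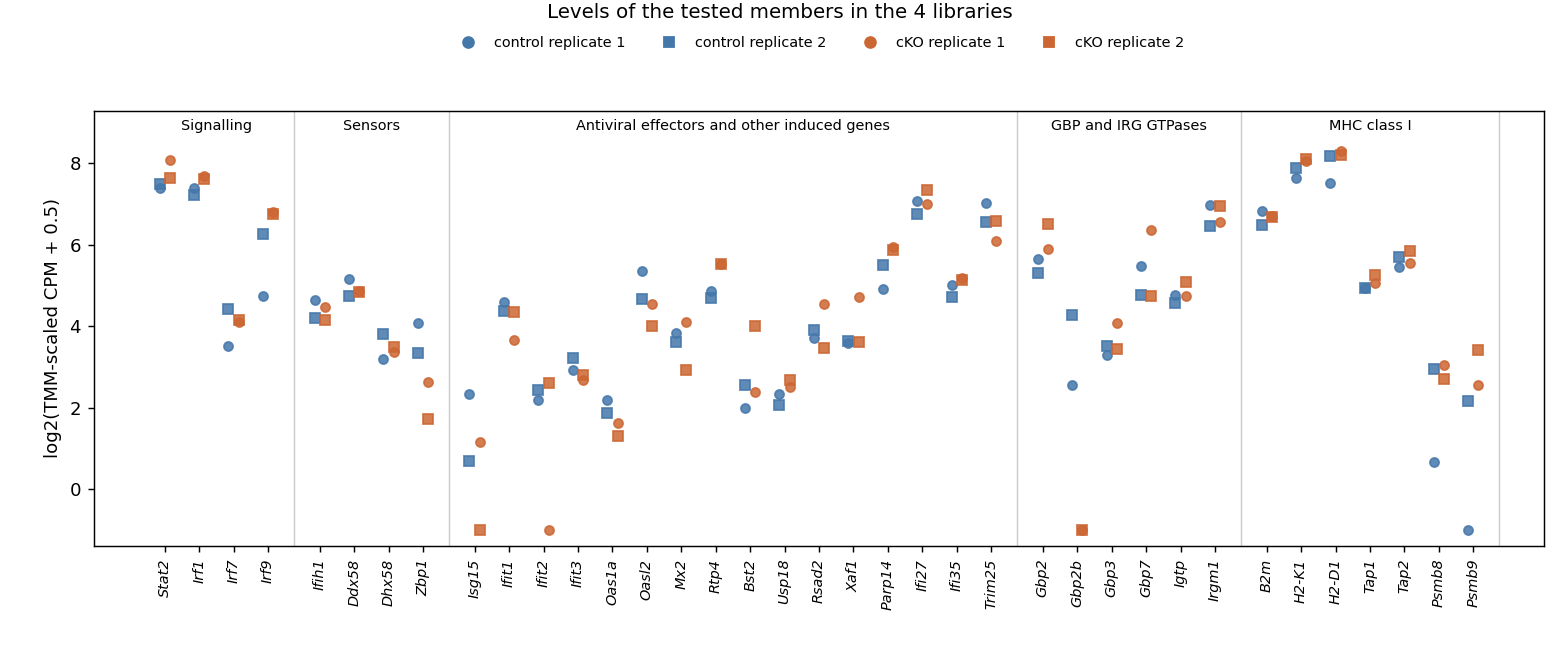
Each point is the level of a tested member in 1 library, as log2 of TMM-scaled CPM plus 0.5, for 37 genes ordered by role (blue, control; orange, cKO; circles, replicate 1; squares, replicate 2). H2-D1, H2-K1, Stat2 and Irf1 sit highest, the 2 cKO points of Gbp2b sit at the bottom, where a library has no count, and the groups of most genes overlap.

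None of the 4 signalling factors passed the test. For Stat2, Irf1 and Irf9 both cKO libraries lay above both controls, and for Irf7 the groups overlapped. Stat2 (chromosome 10, 128270559 to 128292849 on mm10) codes for a transcription factor of type I interferon signalling. It had 169 and 181 CPM in control and 269 and 199 in cKO, a log2 fold change of 0.41 (SE 0.19). Irf1, for a transcription factor of interferon gamma responses, had 167 and 150 CPM in control and 206 and 197 in cKO (0.35, SE 0.16). For both genes the groups did not overlap, and the cKO libraries of Irf1 were closer to each other than to either control.

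Irf9 (ENSMUSG00000002325.15, chromosome 14, 55603571 to 55610030), for the DNA-binding subunit of the complex that recognises the ISRE, had the largest difference among the signalling factors. It had 26.4 and 75.8 CPM in control and 112 and 108 in cKO, means of 51.1 ± 34.9 and 110 ± 2.49 (SD, n = 2). This was a log2 fold change of 1.10 with an SE of 0.44 (edgeR adjusted p = 0.693). The 2 cKO libraries were close together, while the controls differed by 1.51 on the log2 scale, more than the 1.29 between the group means on that scale. The value was 0.53 without control replicate 1 and 2.06 without control replicate 2, when it passed (edgeR adjusted p = 0.0033). Over all alternatives the adjusted p ran from 0.00313 to 1. Irf9 shares 123 exonic bases with Rnf31 on the same strand, and Rnf31 itself had a log2 fold change of 0.029 (SE 0.22). Irf7, the master regulator of the interferon alpha genes, had 10.9 and 20.9 CPM in control and 16.6 and 17.3 in cKO (0.089, SE 0.51), with both cKO libraries between the controls. Irf7 overlaps Phrf1 on the opposite strand by 45 bases, and whether counting used strand was not given in the sources used here, so reads in such overlaps cannot be told apart.

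The sensors stood at low levels, each with a mean of at most 29.6 CPM, and 4 of 4 had negative values. Ifih1, for the double-stranded RNA sensor MDA5, had 24.4 and 18.0 CPM in control and 21.7 and 17.2 in cKO (log2 fold change -0.12, SE 0.42). Ddx58, for the RNA sensor RIG-I, had 35.1 and 26.3 CPM in control and 28.7 and 28.2 in cKO (-0.11, SE 0.34). Dhx58, for LGP2, a RIG-I-like protein that modulates the other sensors, had 8.64 and 13.5 CPM in control and 9.90 and 10.7 in cKO (-0.11, SE 0.62). In these 3 genes the groups overlapped and the difference was under 1 SE. Zbp1 (chromosome 2, 173206612 to 173218923), for a sensor of Z-form nucleic acids that can trigger cell death, was the exception in size. It had 16.5 and 9.70 CPM in control and 5.66 and 2.81 in cKO, means of 13.1 ± 4.78 and 4.23 ± 2.01 (SD, n = 2). Both cKO libraries lay below both controls, but the difference of -1.63 (log2, SE 0.79) did not pass (edgeR adjusted p = 0.742).

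Antiviral effectors split evenly, with 8 of 16 tested members above 0 and 8 below, and the range of log2 fold changes was -1.69 to 1.19. Rtp4 (ENSMUSG00000033355.6, chromosome 16, 23520291 to 23614222), for an interferon-induced transmembrane protein, had the smallest p of the 16. It had 28.7 and 25.2 CPM in control and 45.6 in each cKO library, means of 27.0 ± 2.51 and 45.6 ± 0.00769 (SD, n = 2). Its log2 fold change of 0.76, with SE 0.29 (edgeR adjusted p = 0.683) was 0.67 to 0.85 with 1 library left out. With DESeq2 the adjusted p was 0.0315, in a range of 0.0315 to 1 over the alternatives. Parp14, for an ADP-ribosyltransferase, had 29.4 and 44.7 CPM in control and 61.3 and 58.4 in cKO (0.69, SE 0.30). Both genes had cKO libraries above both controls.

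The other 6 effectors with positive values had log2 fold changes under 2 SE. Ifi35, which codes for an interferon-induced leucine zipper protein, had 32.0 and 25.8 CPM in control and 35.9 and 34.5 in cKO (0.29, SE 0.32). Usp18, for the protease that removes ISG15 and damps interferon receptor signalling, had 4.55 and 3.68 CPM in control and 5.14 and 5.85 in cKO (0.42, SE 1.13). Ifi27 had 135 and 108 CPM in control and 128 and 161 in cKO (0.25, SE 0.21). It was the most abundant effector for its length, at 90.6 CPM per kilobase of exon over the 4 libraries. Bst2, for tetherin, which holds budding virus at the cell surface, had 3.46 and 5.35 CPM in control and 4.69 and 15.5 in cKO (1.19, SE 0.95). Its log2 fold change was 0.08 without cKO replicate 2, which carried the difference. Rsad2, for the antiviral enzyme viperin, had 12.7 and 14.4 CPM in control and 22.7 and 10.6 in cKO (0.29, SE 0.56). Xaf1, for a pro-apoptotic protein, had 11.6 and 11.9 CPM in control and 25.7 and 11.8 in cKO (0.67, SE 0.56). For these 2 genes cKO replicate 1 alone stood above the controls, and without it the values were -0.36 and 0.0018.

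Effectors with negative values included Ifit1, Ifit3, Oas1a and Oasl2. Ifit1, for a protein that binds foreign RNA ends, had 23.6 and 20.3 CPM in control and 12.2 and 20.0 in cKO (log2 fold change -0.45, SE 0.46). Ifit3, of the same family, had 7.09 and 8.84 CPM in control and 5.92 and 6.46 in cKO (-0.36, SE 0.83). Oas1a, for an oligoadenylate synthetase that activates RNA decay, had 4.09 and 3.15 CPM in control and 2.57 and 1.97 in cKO (-0.67, SE 1.58). In each of these both cKO libraries lay below both controls, though each SE was larger than the difference. Oasl2, for an OAS-like protein, had 40.8 and 24.8 CPM in control and 22.8 and 15.6 in cKO (-0.77, SE 0.42), and its groups did not overlap either. Trim25, for the ubiquitin ligase that activates RIG-I, had 131 and 93.8 CPM in control and 68.0 and 94.7 in cKO (-0.46, SE 0.26). Mx2, for a dynamin-like GTPase, had 13.8 and 11.7 CPM in control and 16.7 and 7.03 in cKO (-0.10, SE 0.63). The last 2 overlapped between groups.

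Isg15, Ifit2 and Mx1 had a library with no count. Isg15, for the ubiquitin-like modifier, had 50, 23, 27 and 0 counts in control replicates 1 and 2 and cKO replicates 1 and 2, or 4.55, 1.10, 1.74 and 0 CPM (log2 fold change -1.69, SE 2.71). Ifit2 had 45, 102, 0 and 99 counts in the same order, or 4.09, 4.87, 0 and 5.56 CPM (-0.69, SE 2.14). The single library at 0 set the sign for Ifit2, which had 0.31 without cKO replicate 1. Mx1, for the dynamin-like GTPase that blocks influenza virus, had no count in 3 libraries and 0.5 of a count, rounded to 0, in cKO replicate 1. A count of 0 allows up to 3 counts, or 0.143 to 0.273 CPM by library, counting error only.

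**Figure D2:**
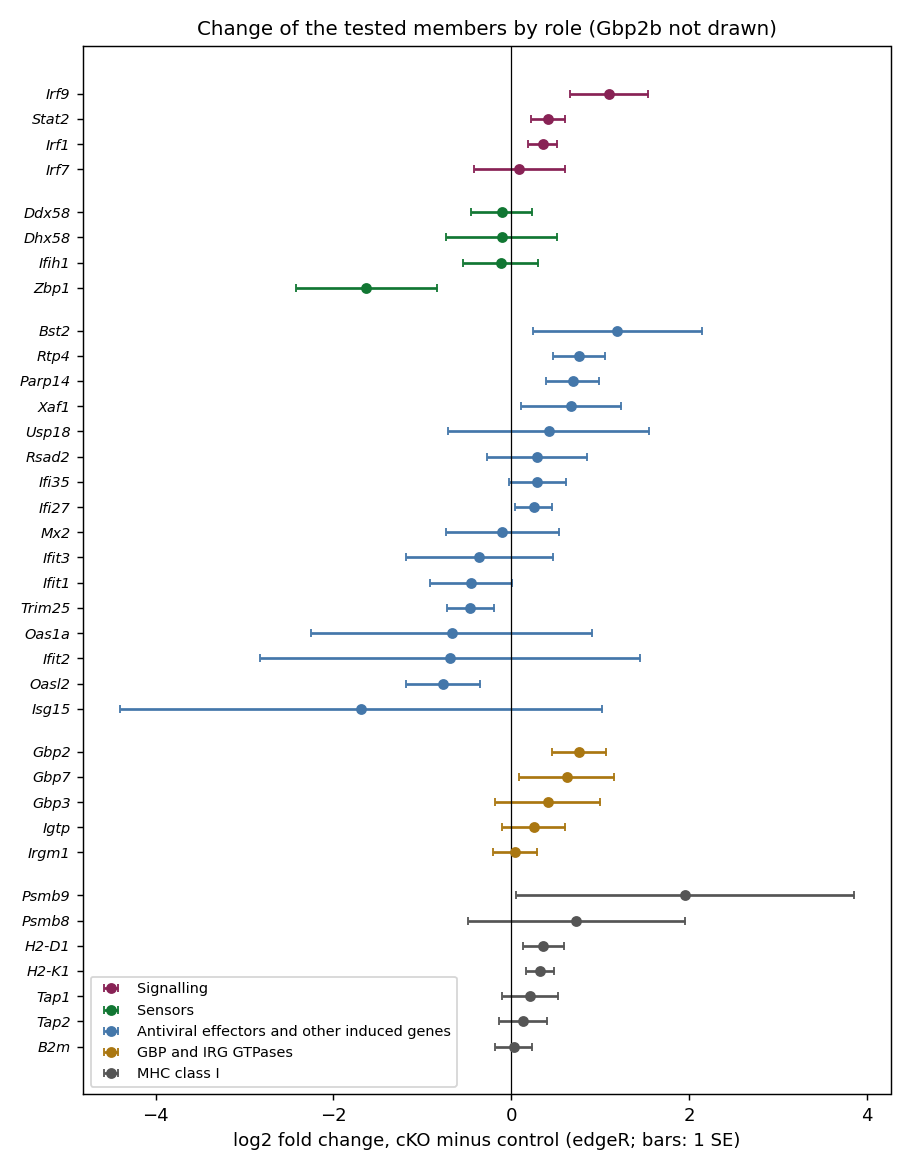
Points give the log2 fold change of each tested member, cKO minus control, with bars of 1 SE, for 36 genes grouped by role. Gbp2b has no count in cKO and is not drawn, and most bars reach or nearly reach 0, with Isg15, Ifit2 and Psmb9 the widest.

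Among the GTPases Gbp2b stood out by its counts. Gbp2b (ENSMUSG00000040264.10, chromosome 3, 142594847 to 142619179), for a guanylate-binding protein that acts on membranes of intracellular pathogens, had 59 and 396 counts in the controls and 0 in both cKO libraries. The control levels were 5.37 and 18.9 CPM, a mean of 12.1 ± 9.59 (SD, n = 2). The control mean was 67.1-fold above a floor of 3 counts per library, 29.6-fold without control replicate 2 and 105-fold without control replicate 1. That floor covers counting error only, and genes could also be missed in a library. Of other interferon-induced genes, Parp10 had 0 and 629 counts in control replicates 1 and 2, and Oas1b had 0 and 315. At least 1 library had no count for 23.6% of all genes tested. The folds are therefore not firm lower bounds. For Gbp2b the edgeR adjusted p was 0.318, and it ran from 2.01e-06 with DESeq2 to 0.424 with the replicate number as a block. It passed in 5 of 13 alternative fits, including those without control replicate 1 (edgeR adjusted p = 0.000655), without cKO replicate 1 (0.0201) and without cKO replicate 2 (0.0191). All 4 libraries carry the label of mixed strain, and strain alleles at this locus were not examined, so how reads of another allele would be counted here was not tested.

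The GBP genes on either side of Gbp2b were detected in all libraries. Gbp2 (chromosome 3, 142620602 to 142638008) had 50 and 38.8 CPM in control and 59.0 and 91.3 in cKO, means of 44.4 ± 7.93 and 75.2 ± 22.8 (SD, n = 2). Its log2 fold change of 0.76, with SE 0.30 (edgeR adjusted p = 0.691) was 0.40 without cKO replicate 2, and its groups did not overlap. Gbp3 (chromosome 3, 142560026 to 142573209) had 9.28 and 10.9 CPM in control and 16.5 and 10.4 in cKO (0.41, SE 0.59). Gbp7 (chromosome 3, 142530342 to 142550149) had 43.9 and 26.8 CPM in control and 82.0 and 26.2 in cKO (0.62, SE 0.53), and -0.43 without cKO replicate 1. GBP genes are close paralogues, so reads that match several of them can be lost or divided. The IRG GTPases on chromosome 11, which control autophagy and vacuoles around pathogens, were nearly level. Igtp had 26.8 and 23.3 CPM in control and 26.3 and 33.4 in cKO (0.25, SE 0.35), and shares 162 exonic bases with Irgm2. Irgm1 had 125 and 87.1 CPM in control and 94.5 and 124 in cKO (0.043, SE 0.25).

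All 7 MHC class I genes had positive values without passing the test. By the merged length of all annotated exons, the chain genes were abundant for their length and the immunoproteasome genes were not. That length was 860 bases for B2m, 3381 for Psmb8 and 3660 for Psmb9, and levels per kilobase depend on it. Per kilobase of exon, over the 4 libraries, the highest member levels were 119 CPM for B2m, 105 for H2-D1, 90.6 for the effector Ifi27 and 83 for H2-K1. Irf1 and Stat2 followed at 45.3 and 34.5, while Psmb8 and Psmb9 had 1.63 and 1.33, and the lowest tested member was Ifit2 at 0.925. B2m (chromosome 2, 122147686 to 122153083) codes for the invariant light chain. B2m had 114 and 89.4 CPM in control and 104 and 103 in cKO, means of 102 ± 17.4 and 104 ± 1.27 (SD, n = 2), and the groups overlapped (log2 fold change 0.026, SE 0.21). The heavy chain gene H2-K1 (chromosome 17, 33996017 to 34000347) had 200 and 235 CPM in control and 267 and 274 in cKO (0.32, SE 0.16, edgeR adjusted p = 0.757). The heavy chain gene H2-D1 (chromosome 17, 35262730 to 35267499) had 182 and 292 CPM in control and 316 and 294 in cKO (0.36, SE 0.23). Both heavy chain genes had cKO libraries above both controls, though for H2-D1 control replicate 2 was close to cKO replicate 2, and the log2 fold change was 0.055 without control replicate 1. Both had counts that were not whole in 3 of 4 libraries, so some reads had been divided. Class I genes are near-identical in places, with which genes the reads were shared was not examined, and the levels are uncertain.

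Peptide supply genes of class I differed in depth of measurement. Tap1, for one half-transporter that carries peptides into the endoplasmic reticulum, had 30.4 CPM in both controls and 32.7 and 37.8 in cKO (log2 fold change 0.21, SE 0.31). Its partner Tap2 had 43.1 and 51.7 CPM in control and 46.4 and 57.2 in cKO (0.13, SE 0.27). The immunoproteasome subunit gene Psmb8 had 12, 150, 120 and 107 counts in control replicates 1 and 2 and cKO replicates 1 and 2, or 1.09, 7.17, 7.72 and 6.01 CPM (0.73, SE 1.22). Control replicate 1 alone was low, and without it the value was -0.070. Psmb9 had 0, 83, 84 and 179 counts in the same order, or 0, 3.97, 5.40 and 10.1 CPM (1.95, SE 1.90, edgeR adjusted p = 0.992). It passed only where control replicate 2 was left out (edgeR adjusted p = 0.0371), when the remaining control had no count. Psmb9 overlaps 212 exonic bases of Tap1 on the opposite strand.

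For most members the spread between replicates matched or exceeded the difference between groups. The median absolute difference between replicates was 0.35 in control and 0.33 in cKO on the scale of log2(CPM + 0.5), and that between group means was 0.40. For all genes tested these were 0.56, 0.42 and 0.41. The difference between group means exceeded both replicate differences for 11 of 37 members, or 29.7%, against 25.7% of all genes. These were Irf1, Rtp4, Parp14, Usp18, Gbp2 and H2-K1 on the higher side and Zbp1, Ifit3, Oas1a, Oasl2 and Gbp2b on the lower side. At least 1 library had no count for 4 tested members (Isg15, Ifit2, Gbp2b and Psmb9). All 4 are among the 10 tested members with a mean under 10 CPM. None of the 27 members above that level had a library at 0. Among all genes tested with a mean of 1 to 10 CPM, 50.8% had a library at 0.

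**Figure D3:**
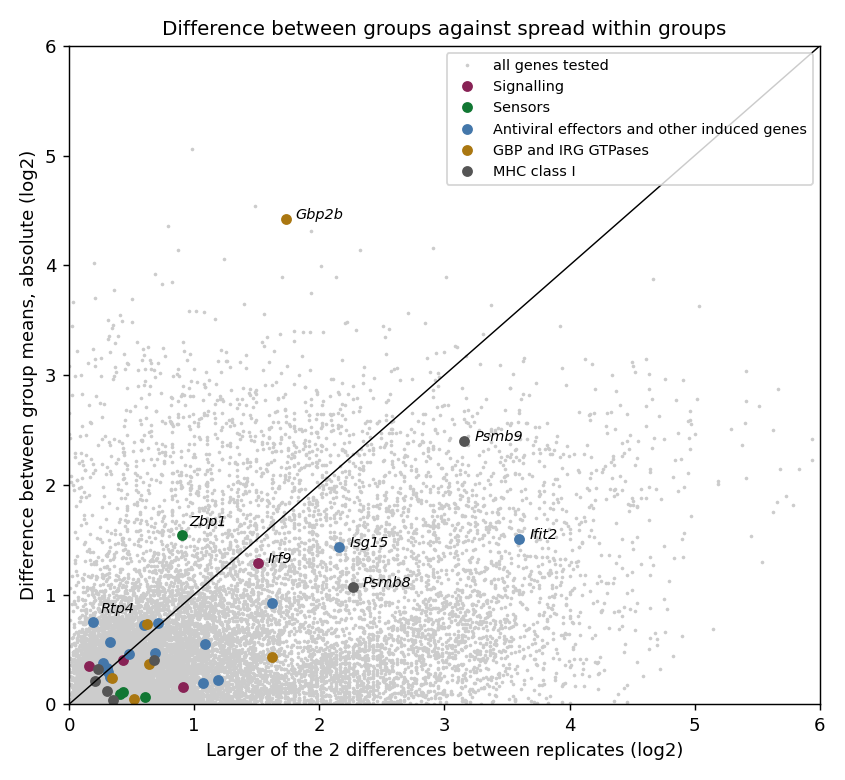
The x axis gives the larger of the 2 differences between replicates and the y axis the absolute difference between group means, both on the log2 scale, with tested members in colour over all 17349 genes in grey. Points above the line differ more between groups than within either, as for Gbp2b, Zbp1 and Rtp4, while Irf9, Isg15, Ifit2, Psmb8 and Psmb9 lie below it.

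Upstream of the members, interferon transcripts were scarce, while at least 1 library had no count for 3 of 28 receptor and other upstream genes. Of 11 interferon genes 9 had no count in any library, and Ifna2 and Ifnl2 had 29 and 26 counts in control replicate 2 alone. Of 28 receptors, kinases, STATs and regulators, all tested, 0 were called by edgeR, 11 were higher and 17 lower in cKO, and the median was -0.22. The higher share was 39.3%, against 52.4% of all genes. An unadjusted p under 0.05 was found for 3 of the 28, or 10.7%, against the 7.04% of all genes. Jak1, for the kinase shared by all interferon receptors, had 410 and 422 CPM in control and 324 and 398 in cKO (log2 fold change -0.20, SE 0.16). Stat3, a STAT of cytokine receptors such as those of the IL-6 family, had 763 and 778 CPM in control and 1094 and 1021 in cKO (0.46, SE 0.12, edgeR adjusted p = 0.518). Socs3, for a feedback inhibitor of JAK kinases, had 267 and 337 CPM in control and 520 and 388 in cKO (0.59, SE 0.20). Both had cKO libraries above both controls. Traf3, for an adaptor in interferon induction, had 102 and 109 CPM in control and 66.7 and 79.8 in cKO (-0.52, SE 0.21). Mb21d1, for the DNA sensor cGAS, had 72 and 26 counts in control and 0 and 1 in cKO.

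Other interferon-induced genes were not called either. Of 52 listed, 42 were tested, with 27 higher, 15 lower and a median of 0.12. The higher share was 64.3%, against 52.4% of all genes. An unadjusted p under 0.05 by edgeR was found for 4 of the 42, or 9.52%, against 7.04% of all genes. Lgals3bp, for a secreted glycoprotein, had 122 and 92.4 CPM in control and 38.5 and 57.5 in cKO (log2 fold change -1.16, SE 0.28, edgeR adjusted p = 0.474). Cmpk2, for a mitochondrial nucleotide kinase, had 17.7 and 19.6 CPM in control and 3.60 and 5.45 in cKO (-2.04, SE 0.61, adjusted p = 0.595 by edgeR). Cmpk2 is a neighbour of Rsad2, whose own value was 0.29. Dtx3l, for a ubiquitin ligase, had 49.8 and 48.3 CPM in control and 75.8 and 72.4 in cKO (0.60, SE 0.23). Ifitm1, for a membrane protein that blocks viral entry, had 54 and 43 counts in control and none in cKO. Its control mean was 19.2-fold above the same floor, or 11.4-fold without control replicate 1, with the same limit. The most abundant members of this list were level, with Helz2 at 0.057 (SE 0.17) and Adar, for an RNA-editing enzyme, at -0.014 (SE 0.18).

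Genes that accompany class I lay on both sides of 0 without a call. Of 19 other class I and peptide-loading genes, all tested, 12 were higher and 7 lower, with a median of 0.070. The higher share was 63.2%, against 52.4% of all genes. An unadjusted p under 0.05 by edgeR was found for 4 of the 19, or 21.1%, against 7.04% of all genes. H2-Q4, a class I gene of the Q region, had 263 and 431 CPM in control and 704 and 759 in cKO (log2 fold change 1.07, SE 0.23, edgeR adjusted p = 0.385). Its counts were not whole in 3 of the libraries, so its level is uncertain. Nlrc5, for the transactivator of class I genes, had 52.3 and 49.3 CPM in control and 76.4 and 87.1 in cKO (0.69, SE 0.23). The chaperone genes Pdia3 and Calr, which also serve general protein folding, had -0.54 (SE 0.12) and -0.38 (SE 0.12). For MHC class II 5 of 9 genes were tested. Their levels were low, with sums of 7.00 to 21.4 CPM in control and 13.5 to 15.9 in cKO, and Cd74, for the invariant chain, had 0, 140, 3 and 94 counts in control replicates 1 and 2 and cKO replicates 1 and 2. H2-DMb1, for a class II peptide exchange factor, had 17, 25, 0 and 0 counts in the same order, H2-DMa had 8, 137, 196 and 91, and Ctss, for cathepsin S, had 52, 14, 0 and 19.

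**Figure D4:**
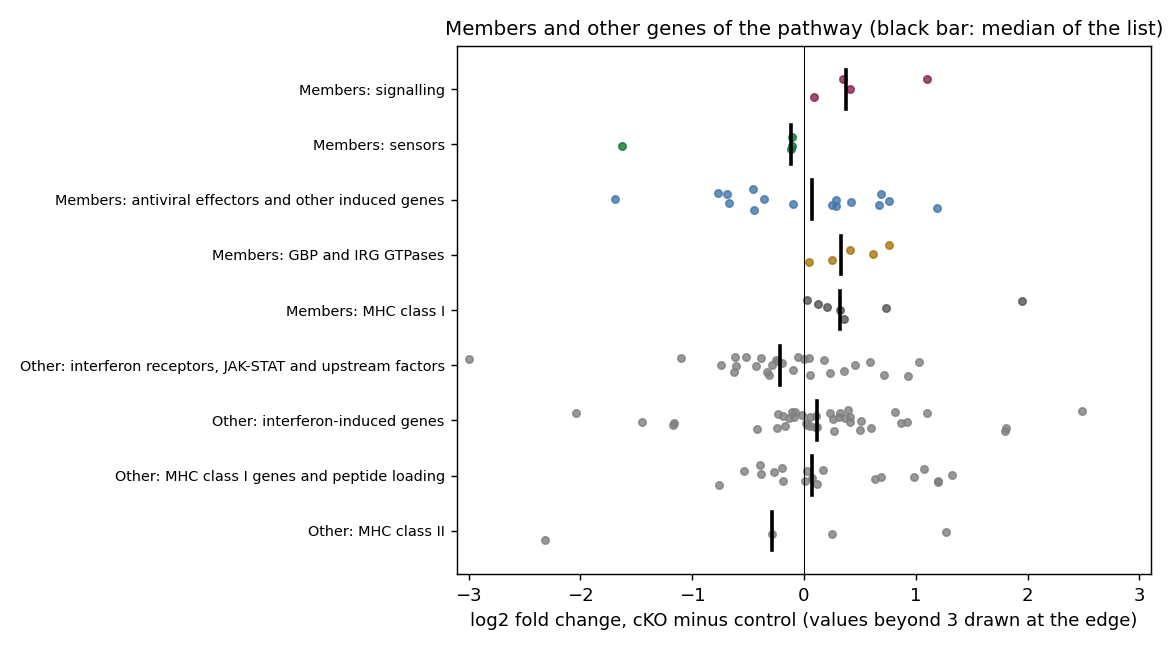
Each point is the log2 fold change of 1 tested gene, cKO minus control, for the 5 roles of members (coloured) and 4 other lists of the pathway (grey), with a black bar at the median of the list. Genes with no count in a whole group are not drawn but count in the medians, which run from 0.38 for signalling factors to -0.29 for MHC class II.

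Leukocyte and endothelial markers stood at low levels in the libraries. The 15 leukocyte markers summed to 18.6 to 24.8 CPM in control and 6.24 to 17.5 in cKO, and C1qa, C1qb, C1qc, Cd3e and Nkg7 had no count in any library. Of this list Cd68, Fcer1g and Cd79a were highest, with at most 12.0 CPM in a library. The 10 endothelial markers summed to 37.7 to 37.9 CPM in control and 11.5 to 23.3 in cKO, led by Cdh5, Pecam1 and Egfl7. The 8 markers of fibroblasts and pericytes, led by Col1a2, Rgs5 and Col1a1, summed to 0.0909 and 19.0 CPM in control and 12.7 to 18.6 in cKO. The members together summed to 1776 and 1818 CPM in control and 2142 to 2185 in cKO. Sums over different genes do not give shares of cells. Mitochondrially encoded transcripts held 5.42% to 6.15% of counts in control and 7.76% to 8.98% in cKO, and Prl, for prolactin, had 312 and 583 CPM in control and 1249 and 1271 in cKO. Among other pituitary cells, marker sums were 1449 to 2971 CPM in control and 1676 to 3419 in cKO for lactotropes and somatotropes (Prl, Gh and Pou1f1 highest). They were 7306 to 10017 and 6166 to 7279 for corticotropes and melanotropes (Pomc, Tbx19 and Crhr1). They were 68.7 to 77.2 and 92.3 to 136 for thyrotropes (Dio2, Tshb and Trhr), and 54.4 to 56.7 and 103 to 110 for stem and supporting cells (Sox9, Sox2 and Cdh1). With mitochondrial genes left out the members' median was 0.24. The part of the other cell types in the members' values was not tested.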

How the data were processed

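Per the submitters' processing notes, the tools behind the table of 4 libraries include STAR 2.5.1b and featureCounts 1.5.0-p1, and the build is mm10. The deposited table holds estimated counts per gene with no scaling, 4.50% of them, and 13.4% of those above 0, not whole. Annotation release, strand and multimapping settings were not given in the sources used here. Symbols came from GENCODE M21 by identifier without version (54495 of 54532 matched). Exon length was the merged length of all exons of a gene in that release.

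Counts were rounded, filtered with filterByExpr (minimum count 10, minimum total 15, by group) and scaled with TMM. All genes were tested with the two-sided quasi-likelihood test of edgeR 4.0.16 (R 4.3.3), modelling group alone. The SE is the log2 fold change divided by the square root of F. Alternatives were other scalings and filters, DESeq2 1.42.0, limma-voom (limma 3.58.1), edgeR's newer method, the replicate number as a block and each library left out. Leaving out mitochondrial genes was added after seeing the data. The scripts were tested on simulated counts.

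Members and lists were chosen with earlier results of these data known. All members were named, with per-library values for those tested. Of other pathway lists up to 4 genes of smallest p and 2 of highest level were named, and of marker lists up to 3 of highest level.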

Additional observations from a re-analysis of the deposited data

How the results depend on the processing

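The count of 10 genes called became 253 with no filter, 943 with DESeq2, 3 with at least 1 CPM in 2 libraries, 256 with limma-voom, 47 with edgeR's newer method, 22 at an adjusted p under 0.10, and 66 to 681 with 1 library left out. The count of 0 members became 2 with no filter, 2 with DESeq2, 1 with limma-voom, and 1 to 2 with 1 library left out. A lone library in a group was assumed to vary like the other group. The causes were not tested. With 1 library left out the median of the sensors ran from -0.31 to -0.14. Signs turned for 12 of 37 members in at least 1 of 13 fits, and 25 kept theirs (17 higher, 8 lower). With library size only Irgm1 had -0.0044 and B2m -0.016, and with the newer method Irf7 had -0.022. With 1 library left out the ranges of members that turned were -0.31 to 0.64 for Irf7, -0.32 to 0.11 for Ifih1, -0.30 to 0.11 for Ddx58, -0.40 to 0.26 for Dhx58, -9.16 to 0.31 for Ifit2, -0.86 to 0.38 for Mx2, -0.36 to 0.73 for Rsad2, -0.43 to 1.2 for Gbp7, -0.19 to 0.32 for Irgm1, -0.14 to 0.20 for B2m, -0.044 to 0.27 for Tap2 and -0.07 to 2.65 for Psmb8. Same-numbered libraries did not deviate together (correlation -0.0105 over genes), so the number was not taken as a pairing. With the replicate block 7 genes and 0 members were called, with a members' median of 0.21, and no member changed sign. The median of the effectors was -0.05 with limma-voom and -0.019 with the block, and from -0.067 to 0.10 with 1 library left out.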
